A study of Penicillium oxalicum with 6 samples.

Results

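Of the 9834 gene models in the expression tables of Penicillium oxalicum, a filamentous fungus known for secreting enzymes that break down plant cell walls, 143 (1.45%) had an expected count of exactly 0 in all 6 libraries. An expected count is the number of reads, or read pairs, that the authors' tool estimated for a gene, and it need not be whole. These 143 genes were chosen by those counts, so their silence is the rule and not a result, and they carry no fold change or test of their own. What could be measured was how many there are at this depth, where they lie along the gene ID numbers, and what the genes next to them did.

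By their labels, all libraries came from mycelium of the strain MuKu70, a mutant of Ku70. Ku70 is a protein of DNA end joining whose loss is widely used in fungi to ease targeted gene replacement. The labels place 3 libraries (F, S and T) in liquid medium with 1% Avicel, a microcrystalline cellulose, and 3 libraries with the same letters in 1% wheat bran, a mixed plant material that holds starch, hemicellulose and cellulose, each for 4 hours. The series title names a mutant lacking the gene POX07277, moved from glucose to Avicel for 24 hours, so title and labels differ in strain and time, and in medium for the wheat-bran-labelled libraries.

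Filamentous fungi keep a share of their genes silent in any given culture. Among the genes known for this are those for spore formation, mating and many secondary metabolites, and the last often sit side by side in clusters that are switched on and off together. Gene prediction also yields models that are never transcribed, and a count of 0 does not tell these kinds apart. The files pair no ID with a name or a function: against the RefSeq gene table for assembly ASM172317v3, with 9964 entries numbered in another way, 0 of 9834 IDs found a match. No role, sequence or genome position is therefore given for any gene here, and an ID number is an order in the tables and nothing more.

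POX07277, the gene in the series title, was checked first. It had 427, 375 and 331 counts in Avicel-labelled replicates F, S and T and 0 in each wheat-bran-labelled replicate. The labels give every library the same strain, while the title names a mutant lacking this gene. The groups are therefore called by their labels throughout. In every comparison below, a difference of medium cannot be told apart from a difference of strain. The time in culture is also unsettled, since the labels and the title give different times, and which of them holds was not tested. POX07277 is not 1 of the 143 genes, but it was at 0 in a whole group and well read in the other. Whether it is absent or silent in the wheat-bran-labelled libraries was not tested. In all, 81 genes were at 0 in every wheat-bran-labelled library but not in every Avicel-labelled one. POX07277 held 1133 of their 1264 summed counts, and the next gene had 9. The reverse held for 94 genes, with 50 counts for the highest and a median of 2. Apart from POX07277, the genes at 0 in 1 group alone thus had at most 50 counts over all libraries.

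The libraries held 13176152 to 14598919 expected counts each and 83615001 in all. A count of 0 allows up to 3 counts. Expressed as CPM, the count per 1000000 counts of a library, this limit was 0.205 to 0.228 in each library and 0.0359 over all 6. These limits cover counting error only. All 143 genes also had an FPKM (reads scaled to gene length and to the depth of the library) of 0 in every library, and no other gene did. A single library had 381 to 458 genes at 0. Over every pair of libraries the number ranged from 256 to 306, over every set of 3 from 205 to 237, over every set of 5 from 156 to 167, and over all 6 it was 143. The number was still falling with the last library added, so the size of the set depends on how many libraries are combined. The subsets also differ in their mix of groups, and the part of depth alone was not tested.

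**Figure D1:**
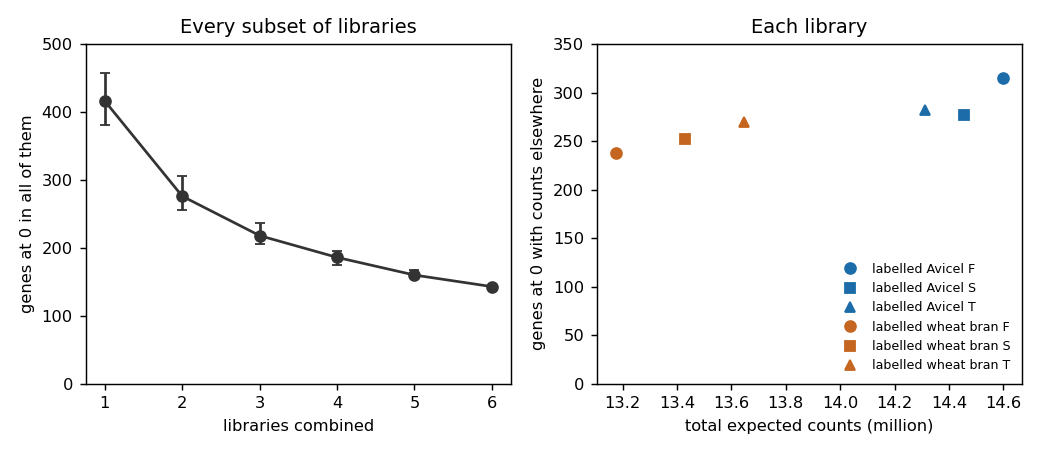
Left, genes at 0 in every member of a subset of libraries against the number of libraries combined (points are medians over all subsets of that size, bars run from the lowest to the highest), falling from a median of 416 for 1 library to 143 for all 6. Right, genes at 0 in a library that have counts in another, against the library's total expected counts, with 238 to 270 in the wheat-bran-labelled libraries and 277 to 315 in the Avicel-labelled ones.

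The genes just outside the rule had very few counts. Summed over the 6 libraries, 92 genes had exactly 1 count, 58 had 2, 49 had 3 and 37 had 4. Counts thus ran down to 0 without a gap. With up to 3 counts over all libraries, 202 genes lay just outside, more than the 143 inside. The 92 genes with a single count owed it to every library in turn, with 12, 21 and 20 of them read in Avicel-labelled replicates F, S and T and 12, 14 and 13 in the wheat-bran-labelled ones.

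Beyond the 143 genes, which add the same number to each library, the Avicel-labelled libraries had more genes at 0. In Avicel-labelled replicates F, S and T, 315, 277 and 282 genes were at 0 that had counts in another library, against 238, 252 and 270 in the wheat-bran-labelled ones. The groups did not overlap, although the Avicel-labelled libraries were the deeper ones. The means were 291 ± 20.6 and 253 ± 16.0 (SD, n = 3 each), a difference of 38.0, and an exact two-sided permutation test gave p = 0.1, the smallest that 3 against 3 allow. Scaled to the depth of the smallest library, the expected numbers were 312 ± 22.5 and 257 ± 19.5 (SD, n = 3 each; exact permutation p = 0.1). Avicel-labelled replicate F had the most, and without it the unscaled difference was 26.2 genes. The labels do not say whether the replicates were separate cultures, so this spread, like that behind the p-values below, may be technical.

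The tables hold no column of gene lengths. For a gene with counts, a length can be derived from its count and FPKM, but for the 143 genes both are 0 and no length follows. The genes closest to them in counts were short. The 202 genes with up to 3 counts had a median derived length of 307 bases, with quartiles of 148 and 626, and 68.8% were under 500 bases. The 236 genes with over 3 and up to 10 counts had a median of 279 bases. Over all 9691 genes with counts the median was 1168 bases and 18.6% were under 500 bases. A short gene draws fewer reads at the same level, so count and length are linked by construction here, and the derived length is an effective one that can be less than that of the transcript. Rounding of the FPKM moved it by a median of at most 1.67% in the lowest class.

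The 143 genes lay closer together at some ID numbers than at others. They run from number 239 to number 9830, with a median step of 32.5 numbers from 1 to the next. Among the 1000 lowest numbers 7 genes were at 0, which is 0.7%, and among the 1000 after them 8. The share was highest at the far end, where 31 of the 834 genes numbered 9001 to 9834 (3.72%) were at 0. In the other 9 blocks of 1000 it was 0.7% to 2%. Genes with up to 3 counts were also most frequent in that last block, at 4.08% against 1.1% to 2.4% elsewhere, and its median level was the lowest, at 16.7 FPKM against 21.6 to 27.4 FPKM. The longest stretch with none lay between numbers 2947 and 3458.

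Some neighbours in number were both at 0. Of the 143 genes, 17 (11.9%) were followed by another on the next number, while 1.45% of all genes were followed by 1 of them. At 2 numbers apart the share was 7.69%, at 3 numbers 6.29%, at 5 numbers 4.23%, at 10 numbers 2.11%, at 20 numbers 1.41% and at 50 numbers 2.21%, so it came down towards that of all genes over the first 10 numbers. Since the counts chose the genes, these shares are a description and were not tested. Most of the genes stood alone: 116 had no other on either side. The other 27 formed 10 runs, of which 7 held 2 genes, 1 held 3 and 2 held 5. The run of 3 took numbers 9791 to 9793.

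**Figure D2:**
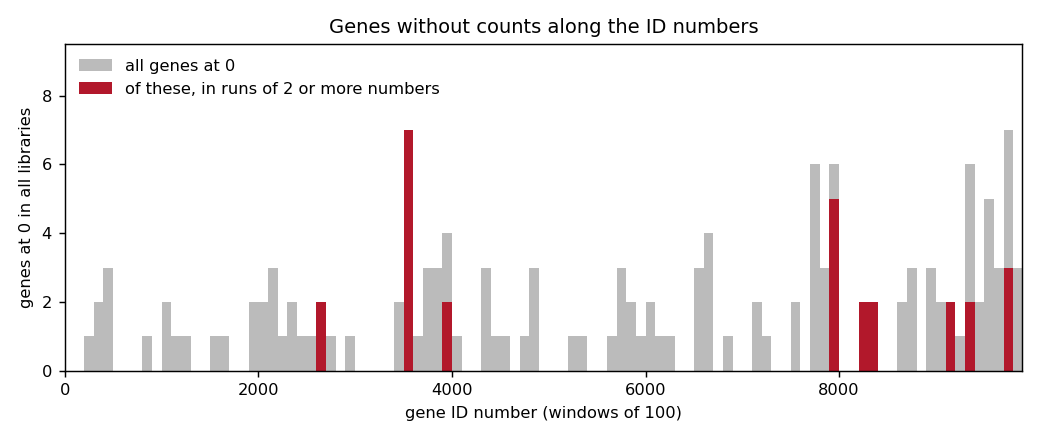
Number of genes at 0 in all libraries in each window of 100 ID numbers (grey), with those in runs of 2 or more consecutive numbers in red. Of 99 windows 36 held none, and 5 windows held 6 or 7 and together 32 of the 143 genes.

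The longer runs filled some of the dense windows. Numbers 3501 to 3600 held 7 genes at 0, all of them in runs, and numbers 9701 to 9800 also held 7. Numbers 7701 to 7800, 7901 to 8000 and 9301 to 9400 held 6 each. In the window from 7701 to 7800 none of the 6 was next to another, so a dense window did not need a run.

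The first run of 5 was POX03549 to POX03553. The genes on its 2 sides, POX03548 and POX03554, had 1 count each, both in wheat-bran-labelled replicate F, and 0 in the other libraries. So 7 genes in a row held 2 of 83615001 counts. The next genes outward had 207 counts on the lower side and 2593 on the upper side. The latter, 2 numbers above the run, had 562, 566 and 534 counts in Avicel-labelled replicates F, S and T and 290, 320 and 321 in the wheat-bran-labelled ones, and the gene 7 numbers above the run stood at a mean of 301 FPKM. Over the 10 genes on each side, 4 of 20 had 10 counts or fewer and the median was 16.7 FPKM, below the 24.6 FPKM of all genes with counts.

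The second run of 5, POX07914 to POX07918, lay among weakly read genes. Of the 20 genes within 10 numbers, 6 had 10 counts or fewer, 1 of them (POX07910) was itself at 0 in all libraries, and the median was 0.857 FPKM. The gene below the run, POX07913, had 32, 53 and 78 counts in Avicel-labelled replicates F, S and T and 30, 30 and 50 in the wheat-bran-labelled ones. The groups overlapped, and it did not pass the test (edgeR quasi-likelihood test over all genes, adjusted p = 0.297). The gene above it, POX07919, had 1 to 16 counts in a library. The strongest gene within 10 numbers, POX07928, stood at 38.1 FPKM. The genes described around both runs were picked after their values were seen.

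**Figure D3:**
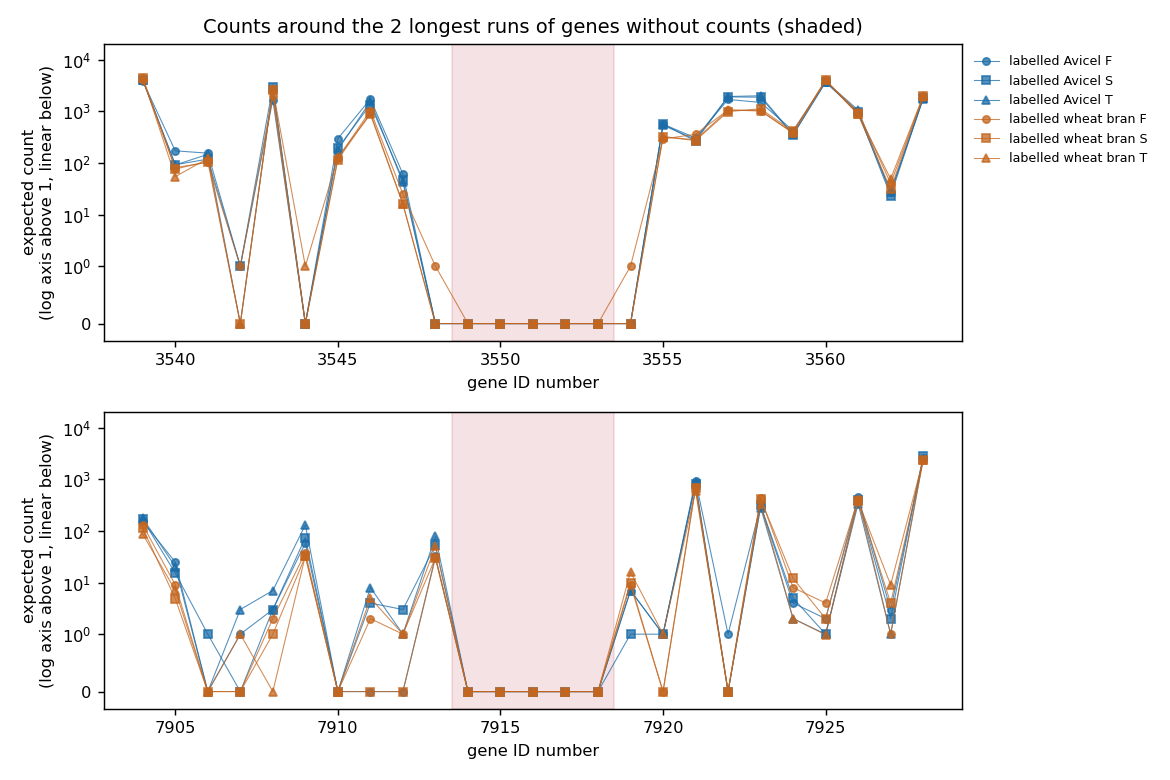
Expected counts in each library (colour, label; marker, replicate) against gene ID number for the 2 runs of 5 genes at 0 (shaded) and 10 genes on each side. In the upper panel counts are back at 290 to 566 only 2 numbers above the run, while in the lower panel most of the 10 genes numbered below the run have under 100 counts.

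Genes next to a gene at 0 were also low. There were 248 genes with counts 1 number away, and their median level was 4.60 FPKM, against 24.9 FPKM for the 9443 genes with counts further off. Before scaling to gene length the median of the 248 genes was 4.95 CPM. The median was higher further away, at 12.9 FPKM at 2 numbers, 16.7 at 3, 22.9 at 4 and 21.4 at 5, and was 25.3 FPKM beyond 50 numbers. Of the 248 genes, 56 (22.6%) had 10 counts or fewer over all libraries, against 4.05% of those further off, and 81 (32.7%) were below 1 FPKM, against 9.35%. At the other end, 20 of the 248 (8.06%) reached 100 FPKM, against 16.5%. Their median derived length was 1010 bases, against 1171 bases for the genes further off. Genes are not replicates, and these medians and shares were not tested.

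**Figure D4:**
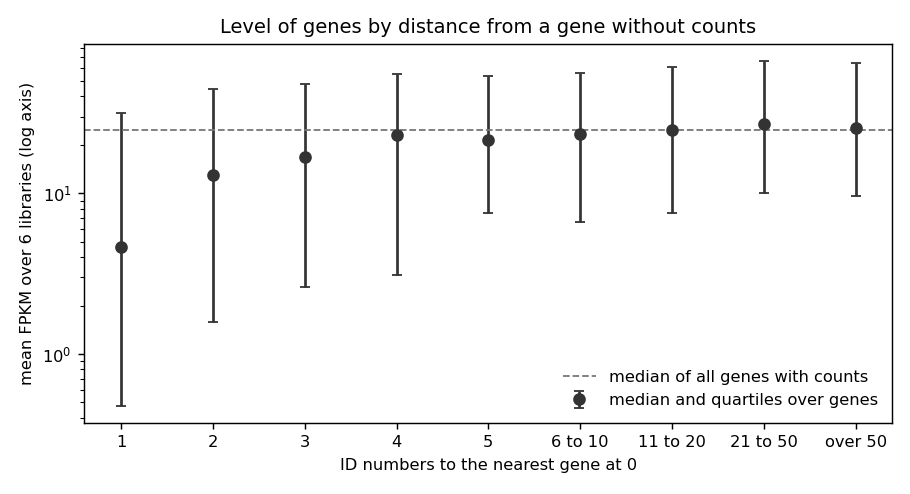
Mean FPKM over the 6 libraries (log axis) against the number of IDs to the nearest gene at 0; points are medians and bars the quartiles over genes, and the dashed line is the median of all genes with counts, 24.6 FPKM. The median climbs from 4.60 FPKM at 1 number to 22.9 FPKM at 4 numbers and is 21.4 to 27.1 FPKM from there on.

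Genes with few counts also had neighbours with few counts. A gene with 3 counts or fewer stood on at least 1 side of 49 of the 143 genes (34.3%). The same held for 28.7% of the genes with up to 3 counts, for 19.9% of those with over 3 and up to 10, and for 5.38% of the 9253 genes with more. The share was thus lower the more counts a gene had, and was not tested.

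Not all neighbours were low. Among the 116 genes that stood alone, 23 (19.8%) had a gene of at least 10 FPKM on both sides, and 19 (16.4%) had a gene of at least 100 FPKM on 1 side or both. Only 13 (11.2%) had both neighbours below 1 FPKM. Among 9441 genes with counts whose neighbours also had counts, the same shares were 54.0%, 29.6% and 1.64%. By mean FPKM, the highest gene next to a gene at 0 lay 1 number above POX04862. It stood at 1112, 891 and 1317 FPKM in Avicel-labelled replicates F, S and T and at 5833, 7209 and 8640 FPKM in the wheat-bran-labelled ones, so the groups did not overlap. It was 6.55-fold lower in the Avicel-labelled libraries (edgeR adjusted p = 2.86e-05; log2 fold change -2.71, SE 0.20). Its derived length was only 187 bases, which raises an FPKM for a given count, and by CPM, at a mean of 778, it came second to the gene 1 number below POX09777, at 926. POX04862, beside it, had no count in any library.

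Genes whose reads are divided between similar copies made up a larger share of the genes near a gene at 0, a difference that was not tested. A count that is not whole, the mark of such division, was found in 13 of the 248 genes at 1 number (5.24%) and in 96 of the 9443 further off (1.02%). The share was 3.45% at 2 numbers, 3.15% at 3, 5.16% at 4 and 2.45% at 5, so it was not particular to direct neighbours. None of the 143 genes had such a value, since all are at 0. Where a gene has a near-identical copy, its 0 depends on how the authors' tool placed the shared reads, and the part of this in the 143 genes was not tested.

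The comparison between the labelled groups was run over all genes and is used here for the genes beside a silent gene. Of the 248 genes at 1 number, 158 had enough counts to be tested and 90 did not. In the Avicel-labelled libraries 14 of the 158 were higher at 2-fold or more and 23 lower, 37 in all (edgeR quasi-likelihood test, adjusted p under 0.05). That is 23.4%, against 16.4% of all 8636 tested genes. By direction, 8.86% were higher, against 7.03% of all tested genes, and 14.6% were lower, against 9.41%. Without regard to fold, 95 of the 158 (60.1%) passed, against 55.0% of all tested genes. The share at 2-fold or more was 19.7% at 2 to 5 numbers and 16.0% beyond 5 numbers. These differences in share were not tested. In bulk RNA of mycelium, fewer cells of a kind and less RNA per cell cannot be told apart.

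The share of called genes differed between levels, so it was also read within ranges of mean FPKM. Between 1 and 10 FPKM, 15 of 48 genes next to a gene at 0 were called at 2-fold or more (31.2%), against 24.7% of all tested genes in that range. Between 10 and 100 FPKM it was 15 of 85 (17.6%), against 12.2%. At 100 FPKM and over it was 7 of 20 (35.0%), against 21%. Below 1 FPKM only 5 of the genes were tested and none was called, against 47 of 132 of all tested genes.

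The median log2 fold change of the 158 tested neighbours was -0.05, against 0.01 for all tested genes. The median FPKM of the 248 genes, tested or not, was 4.73, 4.71 and 5.12 in Avicel-labelled replicates F, S and T and 3.82, 3.70 and 3.56 in the wheat-bran-labelled ones, so it was the higher in every Avicel-labelled library. At a distance of 2 numbers the order was the opposite, with 9.21, 8.50 and 9.69 FPKM against 12.7, 12.7 and 12. For the 9443 genes further off, the mean of these medians was 23.7 FPKM in the Avicel-labelled libraries and 24.3 FPKM in the wheat-bran-labelled ones. The median level of the 248 genes includes 90 that were not tested. It therefore covers other genes than the median fold change does.

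Among neighbours with a mean of at least 10 FPKM in the higher group, the 2 largest decreases beside a gene at 0 were those of POX04766 and POX03459, and the 2 largest increases those of POX08268 and POX03854. Below that minimum, the gene 1 number below POX05971, at a mean of 1.04 FPKM over all libraries, increased more than POX03854 (edgeR adjusted p = 0.00183; log2 fold change 3.33, SE 0.57). POX03459, 1 number above POX03458, stood at 6.56, 6.32 and 5.60 FPKM in Avicel-labelled replicates F, S and T and at 236, 297 and 403 FPKM in the wheat-bran-labelled ones. It was 50.7-fold lower in the former (edgeR adjusted p = 2.18e-06; log2 fold change -5.66, SE 0.24). POX08268 lies 1 number below the pair POX08269 and POX08270, both at 0. It stood at 39.6, 32.2 and 38.6 FPKM in the Avicel-labelled libraries and at 1.45, 1.11 and 1.58 FPKM in the wheat-bran-labelled ones, 26.6-fold higher in the former (edgeR adjusted p = 7.59e-07; log2 fold change 4.73, SE 0.15). POX03854, 1 number above POX03853, stood at 17.1, 20.6 and 23.4 FPKM in the former and at 2.01, 1.98 and 2.48 FPKM in the latter, 9.39-fold higher in the Avicel-labelled libraries (edgeR adjusted p = 5.49e-06; log2 fold change 3.23, SE 0.17). The groups did not overlap for any of these genes, which the rule for naming them required.

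A gene at 0 could also stand inside a stretch that changed on both sides. Of the 143 genes, 48 had a tested gene on each side. In 3 of these pairs both genes were lower at 2-fold or more in the Avicel-labelled libraries, in 0 both were higher, and in 1 they went opposite ways. The 3 are 6.25% of 48, against 2.91% of all 7704 genes with tested genes on both sides, where 88 pairs were higher and 136 lower. With so few pairs the shares are given as a description. The 3 genes at 0 were POX04767, POX08701 and POX09466, named after these values were seen.

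POX09466 had no count in any library, and it divided a long series of genes that were lower in the Avicel-labelled libraries. The 3 genes below it and the 9 above it, numbers 9463 to 9475, were all called at 2-fold or more, with log2 fold changes from -6.08 to -2.69. Summed over these 12 genes the level was 118, 158 and 61.3 CPM in Avicel-labelled replicates F, S and T and 3007, 2398 and 2473 CPM in the wheat-bran-labelled ones. The means were 113 ± 48.6 and 2626 ± 332 CPM (SD, n = 3 each), a 23.3-fold difference. The gene directly below POX09466 stood at 0.49, 1.54 and 0.50 FPKM against 35.7, 32.1 and 22.4 FPKM (edgeR adjusted p = 2.12e-05; log2 fold change -5.14, SE 0.36), and without Avicel-labelled replicate S its log2 fold change was -5.91. The gene directly above stood at 0.11, 0.29 and 0.04 FPKM against 9.88, 5.53 and 7.16 FPKM (edgeR adjusted p = 4.27e-05; log2 fold change -5.66, SE 0.46), and without that replicate it was -6.63. The series was chosen on these libraries, so its size is a description. The counts of all 12 genes were whole in every library.

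POX08701 stood inside a shorter series of the same direction. The 3 genes below it and the 2 above it, numbers 8698 to 8703, were lower by 2.50 to 3.69 on the log2 scale in the Avicel-labelled libraries. These were abundant genes. The one directly below POX08701 stood at 66.1, 51.4 and 29.3 FPKM in Avicel-labelled replicates F, S and T and at 455, 315 and 290 FPKM in the wheat-bran-labelled ones (edgeR adjusted p = 0.000194; log2 fold change -2.85, SE 0.31). The one directly above stood at 129, 110 and 77.5 FPKM against 686, 576 and 529 FPKM (edgeR adjusted p = 4.16e-05; log2 fold change -2.50, SE 0.20). Summed, the 5 genes stood at 311 ± 95.6 and 2278 ± 357 CPM (SD, n = 3 each). Replicate T was the lowest of the Avicel-labelled libraries in each of these values.

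At POX04767 the neighbours were unlike each other. POX04766, 1 number below it, had 13, 6 and 3 counts in Avicel-labelled replicates F, S and T and 3019, 2553 and 2016 in the wheat-bran-labelled ones, a level of 0.847 ± 0.584 against 316 ± 67.9 FPKM (SD, n = 3 each). Its log2 fold change was -8.51 (SE 0.32, edgeR adjusted p = 1.28e-06), and -9.19 without Avicel-labelled replicate F. The gene above POX04767 was read well in all libraries, at 31.6 ± 1.93 against 70.3 ± 4.56 FPKM (SD, n = 3 each), 2.22-fold lower in the Avicel-labelled ones (edgeR adjusted p = 4.61e-05; log2 fold change -1.15, SE 0.09). The level thus went from 316 FPKM to 0 to 70.3 FPKM over 3 consecutive numbers in the wheat-bran-labelled libraries.

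**Figure D5:**
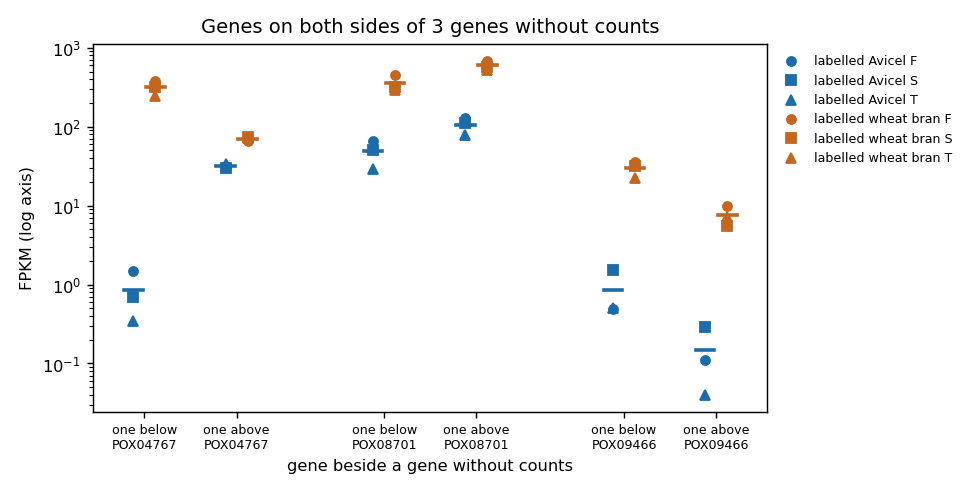
FPKM (log axis) in each library of the genes 1 number below and 1 number above POX04767, POX08701 and POX09466, which are at 0 in every library; points are libraries and lines the mean of 3. In all 6 genes every Avicel-labelled library lies below every wheat-bran-labelled library, from 2.22-fold to 364-fold on the fitted scale. The genes were chosen as pairs both called lower in the Avicel-labelled libraries, so this direction follows from the choice.

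Some runs of called genes ended at a gene at 0. Of the 13 runs of at least 5 consecutive numbers called at 2-fold or more in 1 direction, 2 had a gene at 0 directly at their lower end, numbers 9467 to 9475, described above beside POX09466, and numbers 9684 to 9691, beside POX09683. Both runs were lower in the Avicel-labelled libraries. The other 11 runs had a gene with counts at each end. A gene at 0 cannot be called, so it ends a run by construction. Among all 9253 genes with over 10 counts, 2.08% stood beside a gene at 0 on at least 1 side. That is a share of single genes, while each run holds at least 5 genes and has 2 ends. The count of runs therefore cannot be set against it, and with so few runs nothing was tested.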

How the data were processed

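RNA of mycelium was sequenced in 6 libraries, 3 labelled Avicel and 3 labelled wheat bran. The submitters' processing notes list RSEM 1.2.12, Bowtie2 2.1.0, BWA 0.7.10-r789 and DESeq2 without saying what each was used for. Build, annotation and strandedness: not given in the sources used here, so reads of overlapping or antisense genes may be mixed. Each deposited table holds expected counts, which are not normalized, and FPKM, which the authors divided by gene length and depth, per the file headers. The deposited TPM of 1 table was only checked to be 0 in the genes at 0.

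Genes at 0 were those with an expected count of 0 in every table. Members, lists and tests were chosen with earlier results of these data known. Expected counts, rounded to integers, were tested over all genes with edgeR 4.0.16 under R 4.3.3 (filterByExpr, TMM scaling, two-sided quasi-likelihood test, p adjusted by Benjamini-Hochberg, threshold 0.05), Avicel over wheat bran. CPM values use library totals. SE is the log2 fold change over the root of F. On simulated counts (8636 genes), the test found 59.7% of 67 genes with a true 1.5-fold change, 91.0% of 67 with a 2-fold and 98.5% of 66 with a 4-fold change. Of its 173 calls, 7 were false. Far fewer genes were changed there than the 4746 called in the data, so these rates may not hold for the data. Named neighbours were those at 1 number with the largest changes past the threshold, a mean of at least 10 FPKM in the higher group and no overlap, plus the neighbour with the highest mean FPKM. Alternatives were other scalings, filters, tests (DESeq2 1.42.0, limma 3.58.1 on log2 FPKM), definitions of a gene at 0, distances and left-out libraries.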

Additional observations from a re-analysis of the deposited data

How the results depend on the processing

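The number of genes at 0 was 235 with at most 1 count over all libraries allowed, 345 with at most 3, 237 over the Avicel-labelled libraries and 224 over the wheat-bran-labelled ones; leaving out each library gave 156 to 167. The share followed by another gene at 0 was 18.8% (against 3.51% of all genes) with at most 3 counts allowed, 6.29%, 4.23%, 2.11% and 1.41% at 3, 5, 10 and 20 numbers, and 11.3% to 12.6% with each library left out. Tested neighbours called at 2-fold or more numbered 86, 118 and 178 within 2, 3 and 5 numbers (25.3%, 22.8% and 20.4% of those tested), 100 next to genes with at most 3 counts (24.2%), 35 of 149 without genes whose counts are not whole (an alternative added after the data were seen), and 36 to 42 with each library left out, when 1375 to 1477 of all tested genes were called. Over the 14 fits, 19.0% to 25.8% of the neighbours and 13.8% to 17.0% of all tested genes were called, the neighbours above all tested genes in each. All fits re-use the same libraries, so they are not separate support for this difference, which was not tested. The median level was 10, 13.2 and 20 CPM within 2, 3 and 5 numbers, and 4.83 to 5.12 CPM with each library left out. These larger sets hold more genes by construction. The difference in genes at 0 between the groups was 26.2 to 46.3 with each library left out, where an exact permutation p cannot fall below 0.2.

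With the letters as a replicate block, 37 neighbours and 1420 genes in all were called, as without it. Correlations of deviations from the group means were 0.19 between the F libraries, -0.10 between the S libraries and 0.23 between the T libraries. Across letters they were -0.30 to 0.20, and 4 of 6 libraries correlated best with their own letter. These few values cannot decide whether the letters are pairs. The labels do not say that they are, so the main test used no pairs. The named genes and the genes beside POX04767, POX08701 and POX09466 kept direction and call in all 13 alternative fits. With a pseudocount of 1 on FPKM, which shrinks the folds of weak genes, the gene above POX09466 had a log2 fold change of -2.87. The depth of 83615001 counts limits a gene at 0 to 0.0359 CPM over all libraries.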
